A study of Caenorhabditis elegans with 4 samples.

Results

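The family of miR-238 and miR-239 was represented by miR-238-3p and the pair miR-239a-5p and miR-239b-5p, which are 3 of the 66 mature microRNAs (miRNAs) with deposited values. They were chosen by name, as the family of *C. elegans* miRNAs with reported roles in lifespan and stress, and all 3 were measured in all 4 libraries. Small RNAs were sequenced from co-immunoprecipitations (co-IPs) of the Argonautes ALG-1 and ALG-2, to ask whether individual miRNAs associate more with either protein in adults. The ALG-1 libraries came from FLAG::GFP::ALG-1 animals (strain PQ530) and the ALG-2 libraries from FLAG::RFP::ALG-2 animals (strain PQ582), with 2 libraries for each protein from independent RNA samples. In both strains the tag had been added to the endogenous gene, so the protein was made under its own regulation. Both strains were grown as synchronized whole animals on OP50 bacteria at 20 °C, eggs and larvae were removed, and adults were collected at day 5. Both proteins were recovered with the same anti-FLAG antibody. No input RNA and no untagged strain were analysed here, so no background was subtracted. In these whole-animal co-IPs, fewer cells of a type, less of a miRNA per cell and weaker association with the Argonaute cannot be told apart.

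MiRNAs guide Argonautes to target mRNAs, mainly through pairing of the seed, a short stretch near the 5′ end of the miRNA, and miRNAs that share a seed can share targets. MiR-238, miR-239a and miR-239b are placed in one family because their seeds are alike. In earlier genetic studies of *C. elegans*, animals lacking *mir-238* lived shorter and animals lacking the *mir-239* genes lived longer than wildtype, so members of the same family have been tied to opposite effects on lifespan. The *mir-239* genes have also been linked to survival of heat and oxidative stress.

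The genes lie at separate loci, given here on the WBcel235 assembly from the RefSeq gene table. The *mir-238* gene spans chromosome III 8867328 to 8867425, overlaps no other annotated gene and starts 1960 bases after the end of *mir-80*. The *mir-239.2* gene spans chromosome X 11791302 to 11791399 and *mir-239.1* spans chromosome X 11792445 to 11792542. They are 1045 bases apart, overlap no other annotated gene, and have the noncoding RNA genes C34E11.9 and C34E11.20 between them. The table did not state which of these encodes miR-239a and which encodes miR-239b. The deposited table lists the 3p arm of miR-238 and the 5p arm of each miR-239.

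Values are given as RPM, the reads of a mature miRNA scaled to a fixed library total of 1000000 reads. Each mature miRNA is counted as a whole molecule, so no correction for length was made. Whether different miRNAs entered the libraries with equal efficiency was not tested. The columns do not carry a replicate number, so the libraries of each protein are called A and B in column order. The values were whole multiples of 1 read, which placed the depth at 11625117 and 6428905 reads for the ALG-1 libraries and at 12401622 and 25703472 reads for the ALG-2 libraries. The 66 miRNAs made up 99.3% to 99.5% of each library, so every value is a share of the miRNAs recovered, not an absolute amount.

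MiR-238-3p was the most abundant member in every library. It had 10006 and 11474 RPM in ALG-1 libraries A and B, against 10563 and 4437 RPM in ALG-2 libraries A and B. The ALG-1 libraries and ALG-2 library A lay close together, whereas ALG-2 library B was lower than all of them. Its mean was 10740 ± 1038 RPM over the ALG-1 libraries, against 7500 ± 4332 RPM over the ALG-2 libraries (SD, n = 2 for each protein). Among the 66 miRNAs it ranked at positions 21 and 19 in the ALG-1 libraries and 26 and 28 in the ALG-2 libraries. These values rested on 73766 to 130993 reads per library, with a counting error of at most 0.368%.

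MiR-239a-5p was intermediate in mean abundance and varied widely. It had 3624 and 529 RPM in ALG-1 libraries A and B, against 308 and 947 RPM in ALG-2 libraries A and B. ALG-1 library A was the highest of the 4, and ALG-1 library B fell between the ALG-2 libraries, so the groups overlapped. Its mean was 2077 ± 2188 RPM over the ALG-1 libraries, against 627 ± 452 RPM over the ALG-2 libraries (SD, n = 2 for each protein), and the SD with ALG-1 exceeded the mean. Its rank was 31 and 52 in the ALG-1 libraries and 59 and 43 in the ALG-2 libraries. The smallest read number behind these values was 3404, with a counting error of 1.71%.

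MiR-239b-5p was the least abundant member by mean. It had 1423 and 176 RPM in ALG-1 libraries A and B, against 448 and 716 RPM in ALG-2 libraries A and B. The highest and the lowest of the 4 values both came from ALG-1, and the ALG-2 values fell between them. Its mean was 799 ± 882 RPM over the ALG-1 libraries, against 582 ± 190 RPM over the ALG-2 libraries (SD, n = 2 for each protein). It ranked at positions 44 and 64 in the ALG-1 libraries and 55 and 49 in the ALG-2 libraries. The lowest value, in ALG-1 library B, still rested on 1129 reads with a counting error of 2.98%.

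**Figure D1:**
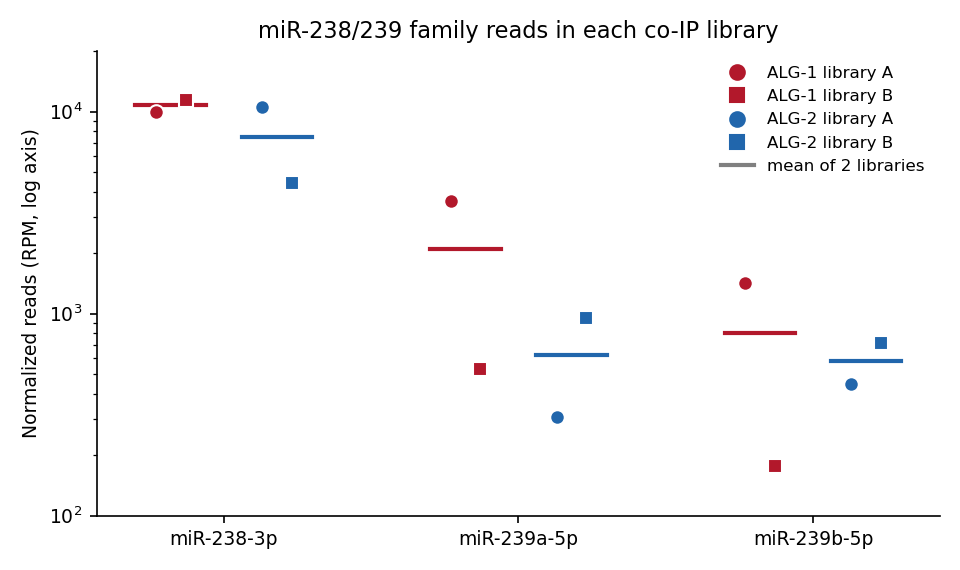
Normalized reads (RPM, log axis) of the family members in each ALG-1 library (red) and ALG-2 library (blue), with circles for library A, squares for library B and bars for the mean of the 2 libraries. MiR-238-3p is highest in every library, and the miR-239 values of ALG-1 libraries A and B lie far apart (miR-239a-5p at 3624 and 529 RPM, miR-239b-5p at 1423 and 176 RPM).

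By mean over the 4 libraries, the order was miR-238-3p at 9120 RPM, miR-239a-5p at 1352 RPM and miR-239b-5p at 691 RPM. The lowest value of miR-238-3p exceeded the highest value of either miR-239, so its place at the top held in every library. The order of miR-239a-5p and miR-239b-5p did not exceed the spread between libraries, since their ranges overlapped and miR-239b-5p was the higher in ALG-2 library A.

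Summed over the members, the family made up 1.51% and 1.22% of the reads in ALG-1 libraries A and B, against 1.13% and 0.610% of those in ALG-2 libraries A and B. Both ALG-1 libraries were above both ALG-2 libraries, although ALG-1 library B was only slightly above ALG-2 library A. Such a separation was common, at 53.0% of the 66 single miRNAs, and was not seen for any member alone. The mean share of the family was 1.36 ± 0.203% with ALG-1, against 0.871 ± 0.369% with ALG-2 (SD, n = 2 for each protein), and the mean log2 difference was 0.70. Without ALG-2 library B this difference was 0.26, and without ALG-2 library A it was 1.15. MiR-238-3p supplied most of the reads of the sum in every library. The pair of miR-239 miRNAs supplied 33.5% and 5.79% of the family's reads in ALG-1 libraries A and B, against 6.68% and 27.3% in ALG-2 libraries A and B. The composition of the family therefore differed more between libraries of the same Argonaute than its mean did between the Argonautes, at 19.7 ± 19.6% with ALG-1, against 17.0 ± 14.6% with ALG-2 (SD, n = 2 for each protein). MiR-238-3p exceeded the summed miR-239 reads by 1.98-fold and 16.3-fold in the ALG-1 libraries, and by 14.0-fold and 2.67-fold in the ALG-2 libraries.

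The ratio of miR-239a-5p to miR-239b-5p within a library does not depend on the library's total. It was 2.55 and 3.02 in ALG-1 libraries A and B, with exact 95% binomial intervals of 2.50 to 2.59 and 2.82 to 3.23. It was 0.687 and 1.32 in ALG-2 libraries A and B, with intervals of 0.659 to 0.716 and 1.30 to 1.35. Both ALG-1 libraries held more miR-239a-5p than miR-239b-5p by a similar factor, although their levels of each miRNA differed severalfold. The ALG-2 libraries fell on opposite sides of equality, with more miR-239b-5p in library A and more miR-239a-5p in library B. MiR-239a-5p made up 71.8% and 75.1% of the reads of the pair in the ALG-1 libraries, and 40.7% and 56.9% in the ALG-2 libraries. The number of reads behind these shares was 58665 and 4533 with ALG-1, and 9371 and 42742 with ALG-2. The intervals cover only the counting of reads within a library, not the spread between libraries. PCR copies carried no molecular identifiers, so they were counted as separate reads.

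**Figure D2:**
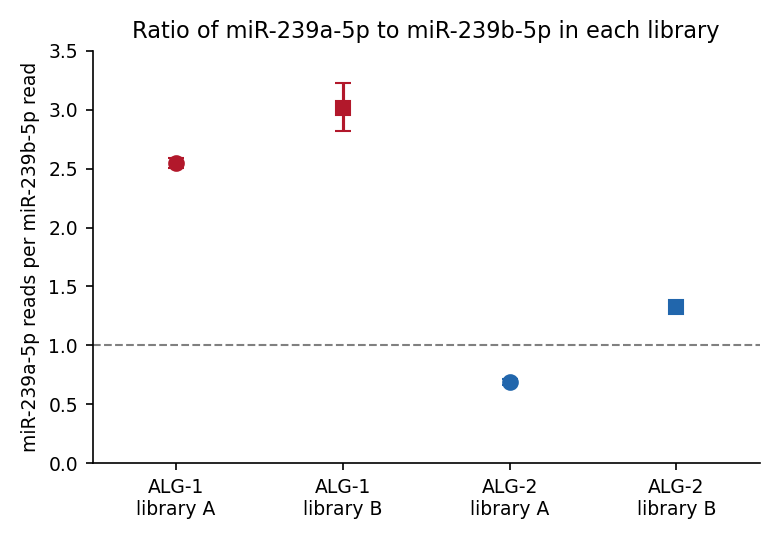
Reads of miR-239a-5p per read of miR-239b-5p in each ALG-1 library (red) and ALG-2 library (blue), with exact 95% binomial intervals as error bars and a dashed line at a ratio of 1. The ALG-1 ratios (2.55 and 3.02) both lie above the ALG-2 ratios (0.687 and 1.32).

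On the log2 scale the mean ratio was 1.47 ± 0.17 with ALG-1, against −0.07 ± 0.67 with ALG-2 (SD, n = 2 for each protein), and the difference of 1.54 was a 2.91-fold higher ratio with ALG-1. This difference exceeded the difference between the ALG-1 libraries (0.24) and that between the ALG-2 libraries (0.94), and the groups did not overlap. An exact two-sided permutation test gave p = 0.333, the smallest value that 2 libraries against 2 allow, so the design could not pass a threshold of 0.05. The separation was also common among listed miRNAs: of the 2145 ratios that can be formed from pairs of listed miRNAs, 55.2% did not overlap between the Argonautes, and 38.0% differed by at least as much. Leaving out each library in turn gave log2 differences of 1.07 to 2.01. Their direction was fixed in advance, because the groups did not overlap.

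On RPM values, the spread between libraries of the same Argonaute set the miR-239 miRNAs apart from miR-238-3p for ALG-1, but not for ALG-2. Between the ALG-1 libraries, miR-239b-5p differed by 8.10-fold and miR-239a-5p by 6.84-fold, both higher in library A. These were the widest differences among the 66 miRNAs, for which the median was 1.27-fold. The next in order was miR-236-3p at 2.96-fold, and 6 miRNAs, these included, differed by more than 2-fold. MiR-238-3p differed by 1.15-fold between the same libraries, in the opposite direction, and ranked at position 47. Counting alone gives a standard error of at most 0.044 on the log2 scale for these differences, against observed log2 differences of 3.02 for miR-239b-5p and 2.77 for miR-239a-5p. The miR-239 miRNAs kept the first and second places under each of the 3 other scalings, with differences of 7.17-fold to 8.04-fold for miR-239b-5p and 6.05-fold to 6.79-fold for miR-239a-5p. A scaling shifts the log2 difference of every miRNA by the same amount, so these places could hardly change.

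Between the ALG-2 libraries the members were not at the extreme. MiR-239a-5p differed by 3.08-fold and miR-239b-5p by 1.60-fold, both higher in library B, and miR-238-3p differed by 2.38-fold in the opposite direction. They ranked at positions 17, 42 and 22 of the 66 miRNAs. The median there was 1.87-fold, the widest difference was 18.9-fold for miR-51-5p, and 28 miRNAs differed by more than 2-fold. The ALG-2 libraries thus varied more than the ALG-1 libraries for the table as a whole, whereas miR-239a-5p and miR-239b-5p varied more between the ALG-1 libraries. After rescaling without the 3 most abundant miRNAs, the differences between the ALG-2 libraries were 1.57-fold for miR-238-3p, 4.66-fold for miR-239a-5p and 2.42-fold for miR-239b-5p. Their ranks were then 45, 7 and 29, so both miR-239 miRNAs varied more than miR-238-3p under that scaling. With median-of-ratios and TMM scaling, miR-238-3p stayed between the miR-239 miRNAs. The part of library depth, which was lowest in ALG-1 library B, in these differences was not tested.

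**Figure D3:**
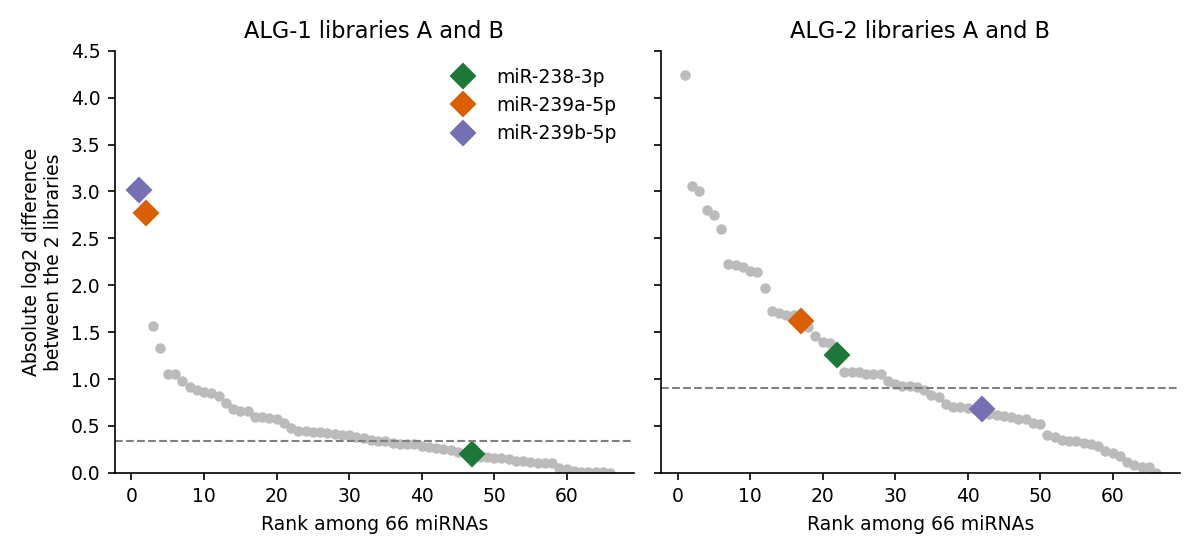
Absolute log2 difference between libraries A and B of ALG-1 (left) and of ALG-2 (right) for 66 miRNAs in order of size (grey), with the family members as colored diamonds and the median as a dashed line. MiR-239b-5p and miR-239a-5p are first and second between the ALG-1 libraries (3.02 and 2.77, median 0.34), and lie within the range of the other miRNAs between the ALG-2 libraries (median 0.90).

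No member differed between the Argonautes beyond the spread between libraries. On log2(RPM + 1) values, limma gave ALG-1 over ALG-2 log2 ratios of 0.65 ± 0.59 for miR-238-3p, 1.36 ± 1.06 for miR-239a-5p and a value of −0.18 ± 1.04 for miR-239b-5p (± SE). The limma p-values, adjusted over all 66 miRNAs, were 0.902 for miR-239b-5p, 0.545 for miR-238-3p and 0.492 for miR-239a-5p. The 95% intervals ran from −2.71 to 2.36 for miR-239b-5p, from −0.79 to 2.08 for miR-238-3p and from −1.23 to 3.94 for miR-239a-5p. These intervals leave room for differences of more than 2-fold in both directions for the miR-239 miRNAs, and toward ALG-1 for miR-238-3p. The libraries therefore do not show that the association of any member was equal. Of the 3 members, 0 passed limma at an adjusted p of 0.05 and 0 had an unadjusted p below 0.05. Among all listed miRNAs, limma called 0 of 66 (0%) higher with ALG-1 and 1 of 66 (1.52%) higher with ALG-2, whereas 7 and 10 had an unadjusted p below 0.05.

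Ratios of single libraries gave the same picture without a test. Each protein had 2 libraries, which gave 4 ratios of an ALG-1 to an ALG-2 library for each miRNA. The ratios ran from 0.947 to 2.59 for miR-238-3p, with 3 of 4 above 1. They ran from 0.559 to 11.8 for miR-239a-5p, also with 3 of 4 above 1, and from 0.245 to 3.18 for miR-239b-5p, with 2 of 4 above 1. Thus 0 of 3 members had all 4 ratios above 1.5 in one direction, whereas 13.6% of the 66 miRNAs did so toward ALG-1 and 16.7% toward ALG-2. The values of one protein lay wholly apart from those of the other for 0 of 3 members and for 53.0% of the 66 miRNAs. The median log2 ratio was 0.65 over the members and 0.13 over all 66 miRNAs.

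**Figure D4:**
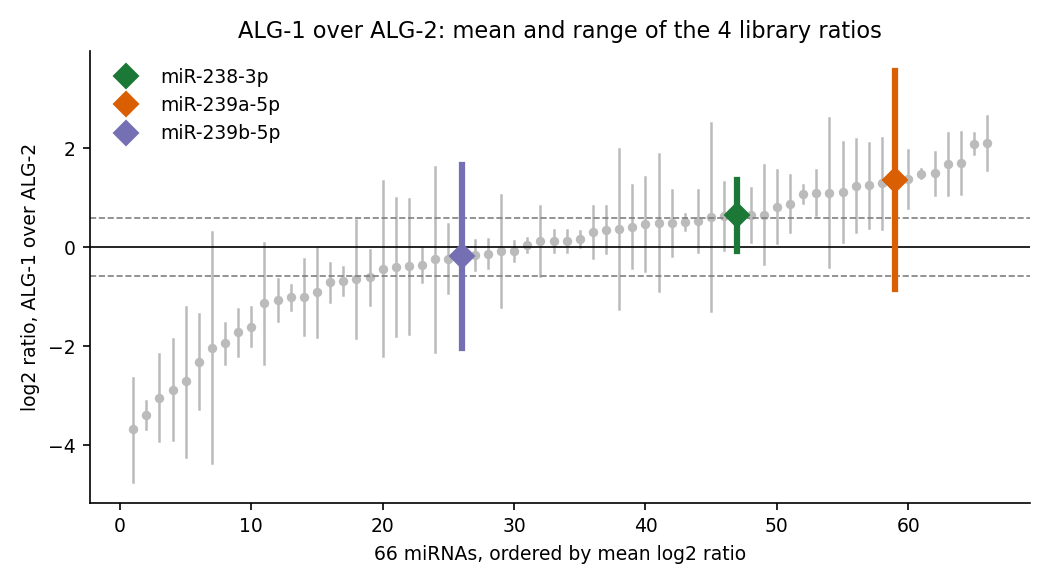
Log2 ratio of ALG-1 over ALG-2 for 66 miRNAs in order of their mean, with points for the mean and vertical lines for the range of the 4 single-library ratios, and dashed lines at 1.5-fold in each direction. The ranges of the family members (colored) all cross 0.

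The difference between the Argonautes rested on single libraries for each member. For miR-238-3p the log2 ratio was 1.27 without ALG-2 library A (limma adjusted p = 0.0676) and 0.021 without ALG-2 library B. For miR-239a-5p it was −0.028 or 2.74 when ALG-1 library A or B was left out, and 0.55 or 2.17 when ALG-2 library A or B was left out. For miR-239b-5p it was −1.68 or 1.33 when ALG-1 library A or B was left out, and −0.52 or 0.16 when ALG-2 library A or B was left out. The direction of miR-239b-5p therefore depended on which library of either Argonaute was used. The log2 ratio of miR-239a-5p was near 0 without ALG-1 library A and positive without any of the others. For miR-239b-5p the log2 ratio was 0.0086 after rescaling without the 3 most abundant miRNAs.

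Other miRNAs with reported roles in lifespan were set beside the family: lin-4-5p, miR-71-5p, miR-228-5p and miR-246-3p, for which loss has been tied to a shorter lifespan, and miR-80-3p, for which loss has been tied to a longer one. Their log2 ratios of ALG-1 over ALG-2 ran from −1.0 for miR-246-3p to 1.70 for lin-4-5p, with a median of 0.52. Of these 5 miRNAs, 0 passed limma after adjustment and 1 had an unadjusted p below 0.05. This was lin-4-5p, the heterochronic miRNA that times larval development (limma adjusted p = 0.154). For 4 of the 5, the ALG-1 and ALG-2 values did not overlap, beside 53.0% of all 66 miRNAs. They differed between the ALG-1 libraries by 1.01-fold to 1.77-fold and between the ALG-2 libraries by at most 1.90-fold. The differences of miR-239a-5p and miR-239b-5p between the ALG-1 libraries were outside that range. MiR-80-3p, whose gene is the nearest miRNA neighbor of *mir-238*, had 30360 and 37671 RPM in the ALG-1 libraries, against 23635 and 23652 RPM in the ALG-2 libraries. The ALG-2 libraries gave almost the same level of miR-80-3p, whereas miR-238-3p differed by 2.38-fold between them.

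The members did not share one profile across the libraries. Likeness was measured as the root mean square difference of log2(RPM + 1) over the 4 libraries, after each miRNA's own mean was subtracted, so that 0 is an identical profile. The profile closest to miR-238-3p was that of miR-46-3p (0.19), followed by miR-245-3p (0.23) and miR-786-3p (0.26). From miR-238-3p, miR-239b-5p (1.39) and miR-239a-5p (1.5) came at positions 55 and 59 of the other 65 miRNAs, farther away than the median of 0.81. The closest profiles to miR-239a-5p were those of miR-58a-3p (0.82), miR-239b-5p (0.84) and miR-85-3p (0.85). Those closest to miR-239b-5p were miR-34-5p (0.80), miR-59-3p (0.81) and miR-239a-5p (0.84). The miR-239 miRNAs were thus among the 3 nearest to each other, although neither was the nearest to the other. With 4 libraries these distances are a description.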

How the data were processed

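RNA recovered with each tagged Argonaute was made into TruSeq small RNA libraries for Illumina sequencing. Reads were trimmed with cutadapt (version not given in the sources used here), mapped to the WS261 genome with miRDeep2 and assigned to miRBase mature miRNAs. Deposited values are in RPM, scaled by the authors to each library's total. How reads were divided between miR-239a-5p and miR-239b-5p, which have related sequences, was not tested, and the ratio of the pair depends on it. Their values differed in every library, which does not show how reads matching both would have been assigned. The table has 66 miRNAs and 4 columns, with 0 columns left unused, and the smallest summed value over the libraries was 1003 RPM.

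Library depth was recovered from the step between values, and 66 of 66 values in each library were whole within 0.001 reads. Groups came from the sample titles. ALG-1 and ALG-2 were compared with limma 3.58.1 (R 4.3.3) on log2(RPM + 1), with a variance trend, no block and Benjamini-Hochberg adjustment over 66 miRNAs. Within-library ratios were compared by exact permutation (scipy 1.17.1). Alternatives were median-of-ratios and TMM scaling, rescaling without the 3 most abundant miRNAs, pseudocounts, a minimum summed value of 4000 RPM, a replicate block, no variance trend and leaving out each library. The named miRNAs were the members, other lifespan-associated miRNAs the study named, and the 3 closest profiles of each member. Neighbors in the spread between libraries were named after their values were seen. The ratios of all pairs of miRNAs and an equally weighted family mean were added after seeing the data. The members and lists were chosen with earlier results of these data known. The scripts were tested on simulated data.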

Additional observations from a re-analysis of the deposited data

How the results depend on the processing

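For miR-238-3p, the direction and the side of the threshold did not change under the alternatives run. The family sum, for which no p is given, and the miR-239a to miR-239b ratio were higher with ALG-1 under each alternative run. For both, the groups did not overlap, so leaving out a library could not reverse the direction. Over the alternatives, limma adjusted p-values ran from 0.0676 to 0.948 for miR-238-3p, from 0.197 to 0.991 for miR-239a-5p and from 0.705 to 0.995 for miR-239b-5p. Without one library at a time, the log2 ratio of ALG-1 over ALG-2 ran from −0.028 to 2.74 for miR-239a-5p and from −1.68 to 1.33 for miR-239b-5p. For miR-239b-5p it was also 0.0086 after rescaling without the 3 most abundant miRNAs, which moved the median of all miRNAs to 0.32 from 0.13, and 0.46 as the ratio of group means. The cause was not tested. With every ratio above 1.5 in one direction, members numbered 0 for pairs in column order and 1 (miR-239a-5p) for crossed pairs. Without one library they numbered 1 to 2. These rules ask fewer than all 4 ratios to pass, so the count could rise but not fall. No share of all 66 miRNAs is given for these rules, so their counts cannot be read as a result about the members. MiRNAs passing limma toward ALG-2 numbered 1, against 4 with median-of-ratios scaling, 4 with TMM scaling, 3 without the variance trend and 0 to 4 without one library. With a replicate block in column order, limma called 0 miRNAs higher with ALG-1 and 1 higher with ALG-2. Deviations of those pairs correlated at −0.21 over 66 miRNAs, and a replicate block with crossed pairs gave 2 toward ALG-1 and 5 toward ALG-2. The titles number the replicates but the columns do not, so neither pairing was used. MiR-239b-5p had no value at a minimum sum of 4000 RPM. With a library left out, limma assumes that the lone library varies like the others. Counting error of the members was at most 2.98%, and the part of library depth in the differences was not tested.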
